A study of Macaca mulatta with 14 samples.

Results

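Apoptosis genes of the caspase and BCL2 families were examined in peripheral blood mononuclear cells (PBMC, a fraction of blood that holds lymphocytes and monocytes) of aged rhesus macaques, and the expression of no gene among them was called different between calorie restriction (CR) and a control diet. The list held 33 genes: caspases, their adaptors and inhibitors, BCL2 proteins of both kinds, and factors that mitochondria release. A gene was measured where the platform annotation gave a probe set that carried its symbol alone, and its probe set with the highest mean log2 signal over all arrays stood for it. By this rule 23 genes were on the array, with 49 probe sets, and 21 of these were bright enough to be tested among 26383 tested probe sets. CASP2 and BCL2L12 were on the array but below the filter on dim probe sets, with 5 and 3 of 14 arrays under a signal of 16. The other 10 genes, CASP9, FADD, XIAP, BCL2L2, BAD, BID, BMF, HRK, BCLAF1 and AIFM1, had no probe set of their own symbol in the annotation used and were not analysed here.

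The series comprised 14 male animals of Macaca mulatta, 7 on a control diet and 7 on CR, with 1 Affymetrix array of total PBMC RNA per animal. Control animals were 24 to 27 years old at blood collection and CR animals 24 to 30. The design text names 16 years of CR in a sentence that covers both groups, and it was taken here for how long the CR animals had been restricted. How far intake was cut, and each animal's own age, were not given in the sources used here.

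In textbook accounts, apoptosis is carried out by caspases, proteases that are made as inactive precursors. In the extrinsic route, death receptors gather initiator caspases on the adaptor FADD. In the intrinsic route, BH3-only proteins sense stress and engage pro-survival BCL2 proteins, which otherwise hold BAX and BAK1 in check. Once BAX and BAK1 permeabilise the outer mitochondrial membrane, cytochrome c binds APAF1 and the resulting apoptosome activates caspase 9. Blood leukocytes depend on different pro-survival members: BCL2 is prominent in resting lymphocytes, MCL1 is needed by many blood lineages, and BCL2A1 is an NF-kB target in myeloid and activated cells.

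Values are MAS5 signals, a brightness scaled to the same trimmed mean on every array. Differences are CR minus control on the log2 scale with the standard error (SE) of the limma fit over all tested probe sets. The spread is the standard deviation (SD) of log2 signals over animals, with n = 7 in each diet. Brightness depends on the probes, so levels of different genes were not compared. Of the cell type markers, 12 of 15 monocyte genes, 8 of 14 T cell genes, 7 of 11 B cell genes and 12 of 13 NK and cytotoxic genes were tested, among them CD14, LYZ, CD5, MS4A1 and GNLY. CD3D, CD3E and CD3G had no probe set of their own symbol. All 12 tested monocyte markers had a lower mean in CR, and the monocyte score (the mean of gene-centred log2 values) ran from -0.77 to 0.79 in controls and from -1.37 to 0.74 in CR. CR 6 and CR 7 had the lowest scores, at -1.37 and -1.18. Of T cell markers 7 of 8 were higher in CR, with scores from -0.59 to 0.08 in controls and from -0.32 to 0.55 in CR, and of NK and cytotoxic markers 11 of 12, from -0.72 to 0.11 and from -0.235 to 0.48. Of the other lists, 6 of 7 B cell markers, 3 of 7 platelet markers and 0 of 7 neutrophil markers were higher in CR, and 1 erythroid marker was tested and was higher. The part of these cell mixtures in the diet differences below was not tested beyond the fits that carry the scores. In RNA of mixed cells, fewer cells of a type and less RNA per cell cannot be told apart.

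Of the 21 tested genes, 0 were called at an adjusted p under 0.05 (limma, Benjamini-Hochberg over all tested probe sets), the same share as in the background, where 0% of 26383 probe sets were called. Their adjusted p ran from 0.918 to 0.994. At an unadjusted p under 0.05, 1 of 21 genes was found, against 5.12% of all tested probe sets, so the share of these genes lay near the background. A linear model without variance moderation also found 0 genes at adjusted p, and 1 before adjustment. The signs were 12 higher and 9 lower in CR. Their median difference was 0.047, and over all 9355 tested genes 54.0% were higher with a median of 0.025. In 0 of 21 genes did the ranges of the diets separate, which 0.0834% of all tested probe sets did. The differences by role are drawn in the plot of diet differences.

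**Figure D1:**
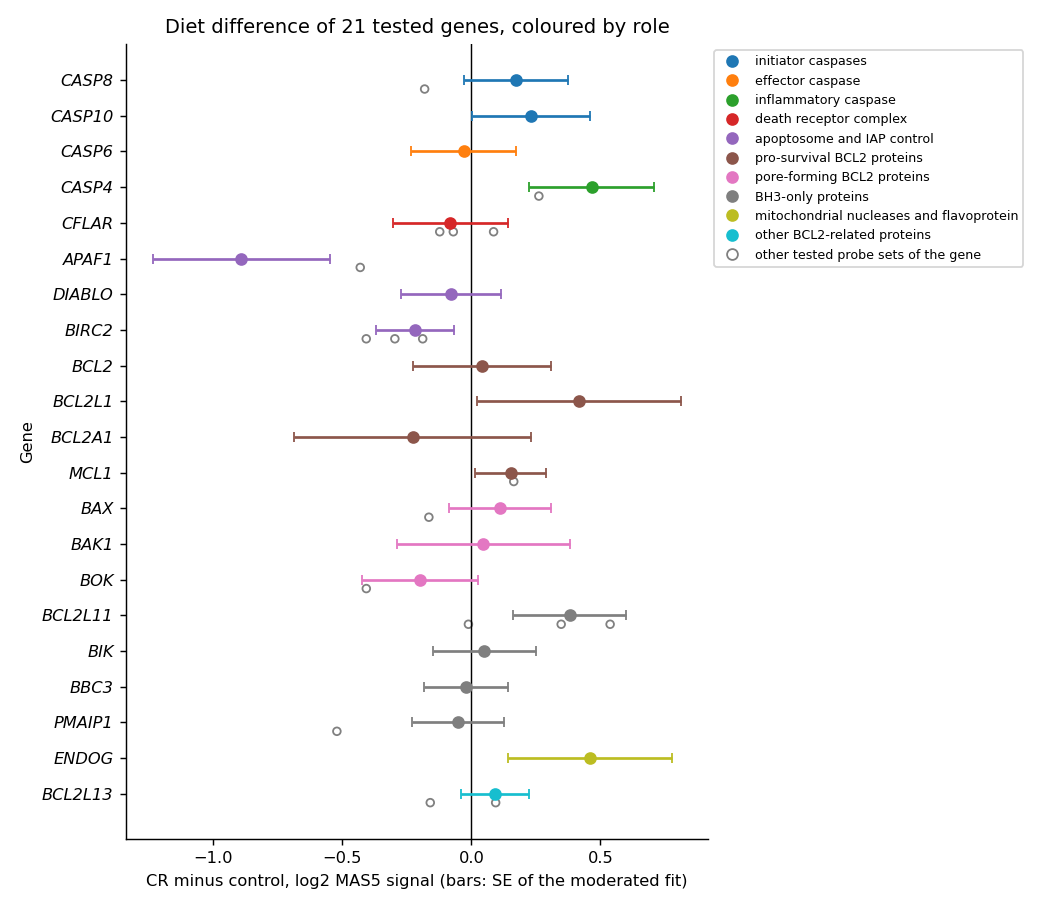
Diet difference of the 21 tested genes. The x axis is CR minus control in log2 MAS5 signal, filled points are the brightest probe set of each gene with its SE (7 animals per diet), colours give the role, and open points are the gene's other tested probe sets. APAF1 lies farthest from 0, at -0.89 ± 0.34, and most other bars cross 0.

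APAF1, the scaffold of the apoptosome, was the gene found at unadjusted p. Its signal was 528 in the lowest control, 1124 at the control median and 2866 in the highest control. In CR it was 240 in the lowest animal, 704 at the median and 963 in the highest. None of the 7 CR animals lay above the control median, and control 5 stood at the top with CR 1 at the bottom, while the ranges of the diets overlapped. The difference was -0.89 ± 0.34 (SE), or 0.539-fold with a 95% interval from 0.327 to 0.888, at an unadjusted p of 0.0182 and an adjusted p of 0.918 (limma). Both other APAF1 probe sets lay lower in CR too, by -0.43 ± 0.18 for the tested one and by -0.83 for the one below the filter. The latter had 2 of 14 arrays under a signal of 16 and a within-diet SD of 1.23. Differences of probe sets below the filter are not given for the genes that follow, and some had the sign opposite to the brightest one. Probe sets of a gene read the same RNA samples and are not independent. With the scores of T cells, B cells, monocytes and NK cells in the fit together the APAF1 difference was -0.38 ± 0.32, and with the monocyte score alone it was -0.99 ± 0.37.

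The other measured genes around the apoptosome were BIRC2 (cIAP1, a ubiquitin ligase that restrains death receptor signalling) and DIABLO (SMAC, a mitochondrial antagonist of inhibitor of apoptosis proteins). BIRC2 signal ran from 17268 over a median of 21335 to 29785 in controls and from 15614 over 19740 to 25248 in CR, with 1 of 7 CR animals above the control median. Its difference was -0.22 ± 0.15, and all 4 of its probe sets lay on the lower side, the other 3 at -0.41 ± 0.26, -0.30 ± 0.18 and -0.19 ± 0.19. The highest control for BIRC2 was control 1, and without it the difference was -0.15. DIABLO differed by -0.078 ± 0.19.

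Initiator caspases of the extrinsic route lay slightly higher in CR without passing. CASP8, which death receptors activate, had signals of 278, 436 and 574 (lowest, median and highest) in controls and 342, 504 and 627 in CR, with 4 of 7 CR animals above the control median. The difference was 0.17 ± 0.20, and the other CASP8 probe set had the opposite sign at -0.18 ± 0.26. Without control 4 the CASP8 difference was 0.074, and with the 4 scores in the fit -0.14. CASP10, the close relative of CASP8 that rodents lack, was at 105, 154 and 209 in controls and at 132, 155 and 247 in CR. Its medians were nearly equal, and 3 CR animals above every control gave a difference of 0.23 ± 0.23, which was 0.15 without CR 2 and 0.095 without CR 6 and CR 7. CFLAR, the caspase-like inhibitor of CASP8, differed by -0.081 ± 0.22, with 3 of its 4 probe sets on the lower side. The effector caspase CASP6 differed by -0.029 ± 0.20.

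CASP4, a caspase of the inflammatory branch that binds lipopolysaccharide in the cytosol and cleaves gasdermin D, had the second smallest unadjusted p of the set (0.0726). Its signal was 844, 2649 and 2995 in controls (lowest, median and highest) and 2382, 2932 and 4036 in CR. The control value of 844 belonged to control 1, which stood apart from the other 6, and 3 CR animals lay above every control. The difference was 0.47 ± 0.24, and 0.23 without control 1. The other CASP4 probe set gave 0.26 ± 0.28.

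**Figure D2:**
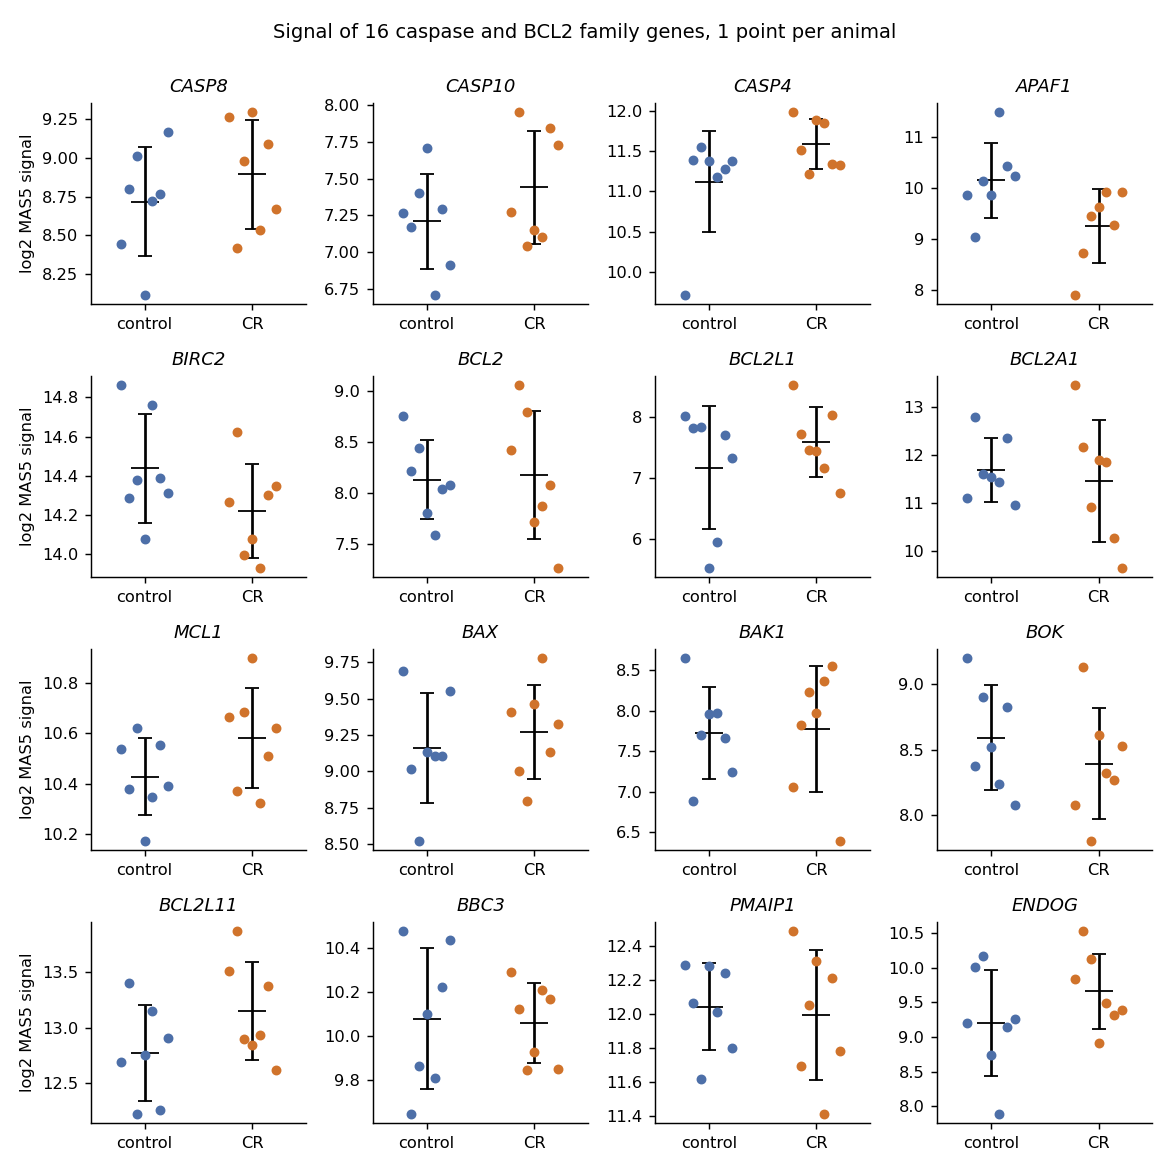
Log2 MAS5 signal of 16 genes in every animal. Each panel is a gene with its own y axis, points are animals (controls left, CR right, ordered by replicate number), and the line and bars are the mean and SD of 7 animals. In every panel the diets overlap, and APAF1 is the panel in which all 7 CR animals lie below the control median.

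The 4 measured pro-survival BCL2 genes showed no common direction. BCL2 itself had signals of 192, 271 and 432 in controls and 155, 271 and 533 in CR, so the medians coincided. Its difference was 0.042 ± 0.27, with a 95% interval of the fold from 0.696 to 1.52. Its within-diet SD was 0.39 in controls and 0.63 in CR.

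MCL1, a short-lived protein that binds BAK1 and BH3-only proteins, was at 1155, 1342 and 1575 in controls and at 1281, 1577 and 1909 in CR. Although 4 of 7 CR animals lay above every control, the difference was 0.15 ± 0.14 (1.11-fold, 95% interval 0.909 to 1.36). Without CR 4 it was 0.0998, and with the 4 scores in the fit 0.012. The other MCL1 probe set gave 0.16 ± 0.36. The brightest MCL1 probe set varied little between animals, with a within-diet SD of 0.177, and 1.07% of all tested probe sets had a smaller one. The within-diet SD of the other MCL1 probe set was 0.70.

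BCL2L1, which encodes BCL-XL and, by splicing, a shorter pro-death form, was dim and scattered. Its signal was 46, 209 and 259 in controls and 109, 176 and 367 in CR. The difference was 0.42 ± 0.40, and 0.14 without control 4, the lowest animal. With those 4 scores in the fit it was -0.45. Its other 3 probe sets were below the filter.

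BCL2A1 (BFL-1) had the widest spread of the set. Its signal was 1976, 2978 and 7012 in controls and 805, 3679 and 11151 in CR, and both extremes were CR animals, CR 7 at the bottom and CR 1 at the top. The difference was -0.23 ± 0.46, far within the within-diet SD of 0.66 in controls and 1.27 in CR. Of all tested probe sets, 94.7% had a smaller within-diet SD.

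Among pore-forming proteins, BAX was at 368, 552 and 825 in controls and at 444, 641 and 877 in CR, a difference of 0.11 ± 0.20, and the other tested BAX probe set had the opposite sign (-0.16 ± 0.23). Without control 3 the BAX difference was 0.0049. BAK1 was at 118, 208 and 400 in controls and at 84, 251 and 376 in CR, with 5 of 7 CR animals above the control median and CR 7 lowest of all. Its difference was 0.047 ± 0.33, with a 95% interval of the fold from 0.635 to 1.68. BOK, the pore former that acts apart from BAX and BAK1, was at 271, 368 and 588 in controls and at 224, 320 and 563 in CR. It differed by -0.20 ± 0.23, and its other probe set gave -0.41 ± 0.44. The BOK difference was -0.098 without control 1 and -0.32 without CR 2.

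Of the BH3-only genes, BCL2L11 had the smallest unadjusted p (0.0986). It encodes BIM, which binds all pro-survival BCL2 proteins and removes lymphocytes deprived of cytokine. Its brightest probe set was at 4774, 6895 and 10802 in controls and at 6277, 7830 and 14969 in CR, with 6 of 7 CR animals above the control median and CR 2 highest. The difference was 0.38 ± 0.22 (1.30-fold, 95% interval 0.947 to 1.79), and the other 3 tested probe sets gave 0.54 ± 0.24, 0.35 ± 0.28 and -0.011 ± 0.20. Without CR 2 the difference of the brightest one was 0.26.

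BBC3 (PUMA), a p53 target, was at 801, 1098 and 1426 in controls and at 919, 1115 and 1255 in CR. It differed by -0.020 ± 0.16, and the CR animals lay inside the control range. PMAIP1 (NOXA), which binds MCL1, was at 3144, 4290 and 5013 in controls and at 2729, 4254 and 5743 in CR. Its difference was -0.050 ± 0.18, whereas its other probe set gave -0.52 ± 0.30. BIK differed by 0.051 ± 0.20.

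ENDOG, a mitochondrial nuclease that can enter the nucleus, was at 237, 588 and 1149 in controls and at 483, 721 and 1477 in CR, with 6 of 7 CR animals above the control median. The difference was 0.46 ± 0.32, and 0.24 without control 5, the lowest animal. With the 4 scores in the fit it was -0.15. BCL2L13, an outer-membrane protein with a role in mitophagy, differed by 0.091 ± 0.13. Its brightest probe set had the smallest within-diet SD of the set (0.164), and its other probe sets had 0.35 and 0.78.

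Probe sets of a gene did not always share a sign, and differences between them were not tested. Of the 11 genes with more than 1 tested probe set, 5 had probe sets of both signs: CASP8, CFLAR, BAX, BCL2L11 and BCL2L13. Over all 39 tested probe sets of the 21 genes, 18 were higher and 21 lower in CR with a median of -0.020, and 3 passed an unadjusted p under 0.05. These were 2 of APAF1, lower in CR, and 1 of BCL2L11, higher in CR.

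The balance of pro-survival against pro-death genes was compared next. The pro-survival side held 6 tested genes (BCL2, BCL2L1, BCL2A1, MCL1, CFLAR and BIRC2) and the pro-death side 13 (BAX, BAK1, BOK, BCL2L11, BIK, BBC3, PMAIP1, CASP6, CASP8, CASP10, APAF1, DIABLO and ENDOG). CASP4 and BCL2L13 were on neither side. On the pro-survival side 3 genes were higher and 3 lower, with a median difference of -0.020, and on the pro-death side 7 were higher and 6 lower, with a median of 0.047. The gap between these medians was -0.067. Within the BCL2 family alone the medians were 0.097 for 4 pro-survival genes and 0.047 for 7 pro-death genes. No p is given, since the genes of both sides were chosen with earlier results known.

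Per animal, the mean of gene-centred log2 values of the pro-survival side ran from -0.54 to 0.33 in controls, with a median of 0.14, and from -0.59 to 0.66 in CR, with a median of -0.12. Group means differed by 0.015, against SDs of 0.32 and 0.42. The pro-death side ran from -0.097 to 0.19 in controls and from -0.14 to 0.15 in CR, and its group means also differed by 0.015, against SDs of 0.10 and 0.097. This side averages more genes, which narrows it. Pro-survival minus pro-death ran from -0.51 in control 4 to 0.42 in control 2, and from -0.45 in CR 7 to 0.74 in CR 1, with medians of -0.048 and -0.16. The animals of a diet thus differed from each other far more than the diets did.

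**Figure D3:**
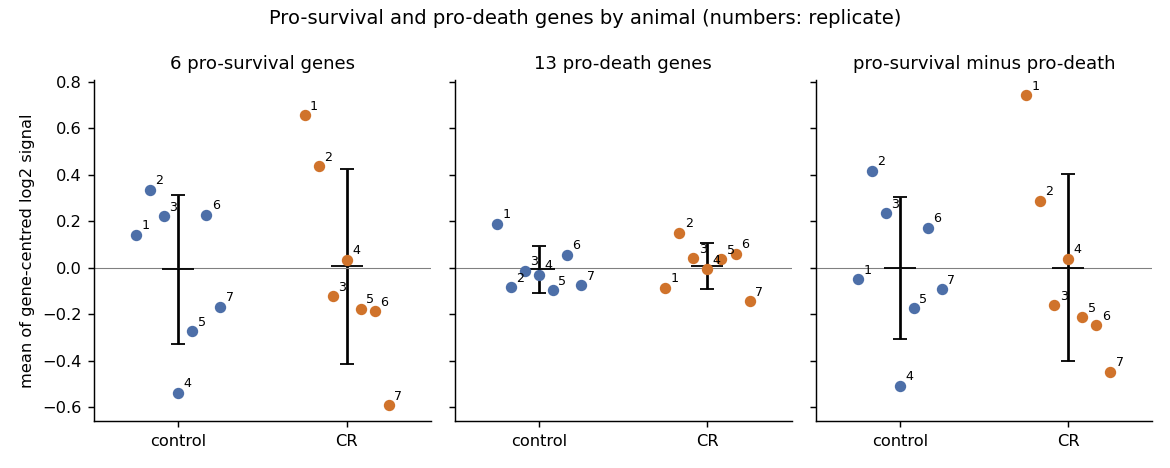
Mean of gene-centred log2 signal per animal for the 6 pro-survival genes, the 13 pro-death genes and their difference. Points are animals labelled with their replicate number, and lines and bars are the mean and SD of 7 animals. The difference spans -0.51 to 0.42 in controls and -0.45 to 0.74 in CR.

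How these genes varied between animals of a diet was set against the marker genes of blood cell types. The slope of log2 signal on each cell type score was fitted with diet in the model over all tested probe sets. On the monocyte score, 1 of 21 genes (4.76%) was called (limma, adjusted p under 0.05). This share lay near the 4.09% of all tested probe sets. The called gene was BCL2A1, with a slope of 1.27 ± 0.21 log2 units per unit of score and an adjusted p of 0.00328. Positive slopes were called for 2.62% of all tested probe sets and negative slopes for 1.47%. With the score in the fit, the diet difference of BCL2A1 was 0.46 ± 0.29 instead of -0.23 ± 0.46, at an adjusted p of 0.699.

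The relation of BCL2A1 to the monocyte score was also taken within each diet, without a test between the diets. Values over all 14 animals, here and below, leave diet out of the correlation and of its permutation. Over these animals Pearson's r was 0.818 (permutation p = 0.0003, adjusted over 21 genes 0.0063) and Spearman's rho was 0.723 (permutation p = 0.00498, adjusted 0.105). Among the 7 CR animals r was 0.950 (exact permutation p = 0.00397) and rho 0.857 (exact permutation p = 0.0238). Among the 7 controls r was 0.539 (exact permutation p = 0.141) and rho 0.536 (exact permutation p = 0.236). Without CR 6 and CR 7, the animals with the lowest scores, r over the other animals was 0.646, and the slope of 1.06 ± 0.30 was no longer called (adjusted p = 0.164, limma). The platelet score moved along the same animals, at -1.95 in CR 6 and -1.16 in CR 7 against 1.10 in CR 1. BCL2A1 had a slope of 0.82 ± 0.20 on the platelet score (adjusted p = 0.0556, limma). With both scores in the fit its monocyte slope was 0.99 ± 0.29 (adjusted p = 0.251, limma).

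The neutrophil score, whose genes S100A8, S100A9 and CSF3R monocytes also express, moved along these animals as well, at -1.585 in CR 6 and -1.67 in CR 7 against 0.99 in CR 1 and 1.02 in control 2. The fit on this score was chosen after its values were seen. BCL2A1 was the 1 of 21 genes called on the score (slope 1.21 ± 0.16, adjusted p = 0.00144, limma), against 2.2% of all tested probe sets. With BCL2A1 it gave r of 0.871 over 14 animals (permutation p = 0.0001, adjusted over 21 genes 0.0021) and rho of 0.780 (permutation p = 0.00152, adjusted 0.0319), and without CR 6 and CR 7 r was 0.768. Within diets r was 0.818 in controls and 0.923 in CR (exact permutation p = 0.0357 and 0.00556, n = 7 each), with rho of 0.643 and 0.893 (exact permutation p = 0.139 and 0.0123). With monocyte and neutrophil scores in the fit together, the monocyte slope of BCL2A1 was 0.52 ± 0.27 and no longer called (adjusted p = 0.363, limma). DIABLO gave r of 0.694 and rho of 0.741 with the neutrophil score over 14 animals. Both passed after adjustment over these 21 genes alone (permutation p = 0.00234 and 0.00336, adjusted 0.0246 and 0.0353). The permutation was not run over all tested probe sets, of which 18.3% had an unadjusted p under 0.05 on this score (limma). Adjusted over all of them, the DIABLO slope of 0.33 ± 0.11 was not called (adjusted p = 0.131, limma). Without CR 6 and CR 7 the r of DIABLO was 0.611.

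**Figure D4:**
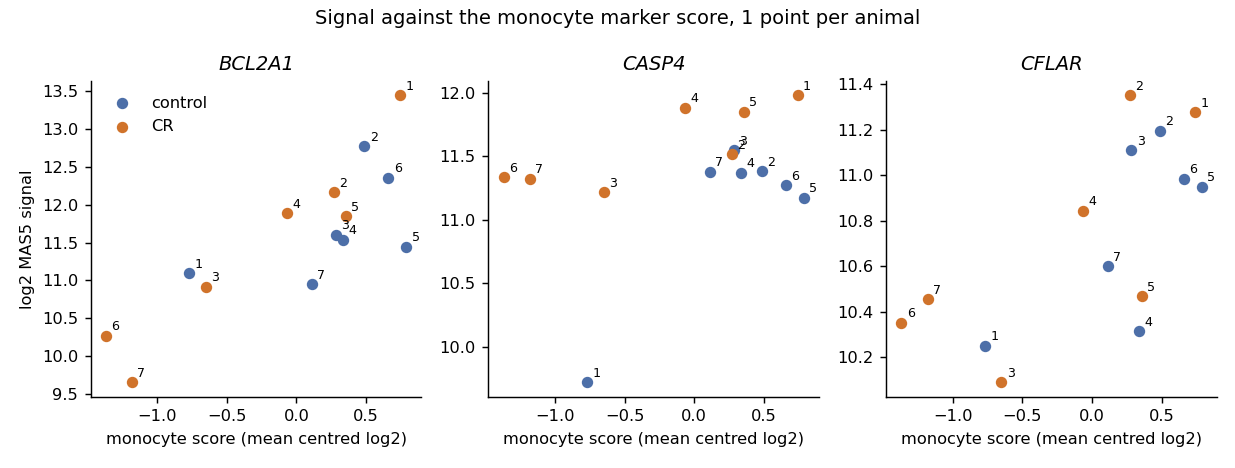
Log2 MAS5 signal of BCL2A1, CASP4 and CFLAR (y axes) against the monocyte score (x axis, mean of gene-centred log2 values of 12 markers). Points are animals coloured by diet and labelled with their replicate number. BCL2A1 is lowest in CR 6 and CR 7, where the score is -1.37 and -1.18, and CASP4 in control 1 lies below all other animals.

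CASP4 and CFLAR came next in order of p. The CASP4 slope was 0.51 ± 0.15 (adjusted p = 0.0663, limma) and was 0.26 without control 1 and 0.79 without CR 6 and CR 7. In controls r was 0.817 but rho was -0.071, so the relation among controls rested on control 1. In CR r was 0.820 and rho 0.750 (exact permutation p = 0.0361 and 0.0663, n = 7). Without CR 6 and CR 7, r over the other animals of both diets was 0.59. With the score in the fit the diet difference of CASP4 was 0.74 ± 0.21 in place of 0.47 ± 0.24, at an adjusted p of 0.631 (limma). CFLAR had a slope of 0.45 ± 0.14 (adjusted p = 0.0823, limma), with r of 0.687 in controls and 0.71 in CR (exact permutation p = 0.0948 and 0.0786, n = 7 each). Over all 14 animals the r of CFLAR was 0.678 and its rho 0.609 (permutation p = 0.00828 and 0.0246, adjusted 0.0869 and 0.258 over 21 genes), and without CR 6 and CR 7 its r was 0.695. For CASP4 r was 0.394 and rho 0.240 (permutation p = 0.243 and 0.409, adjusted 0.988 and 0.861).

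**Figure D5:**
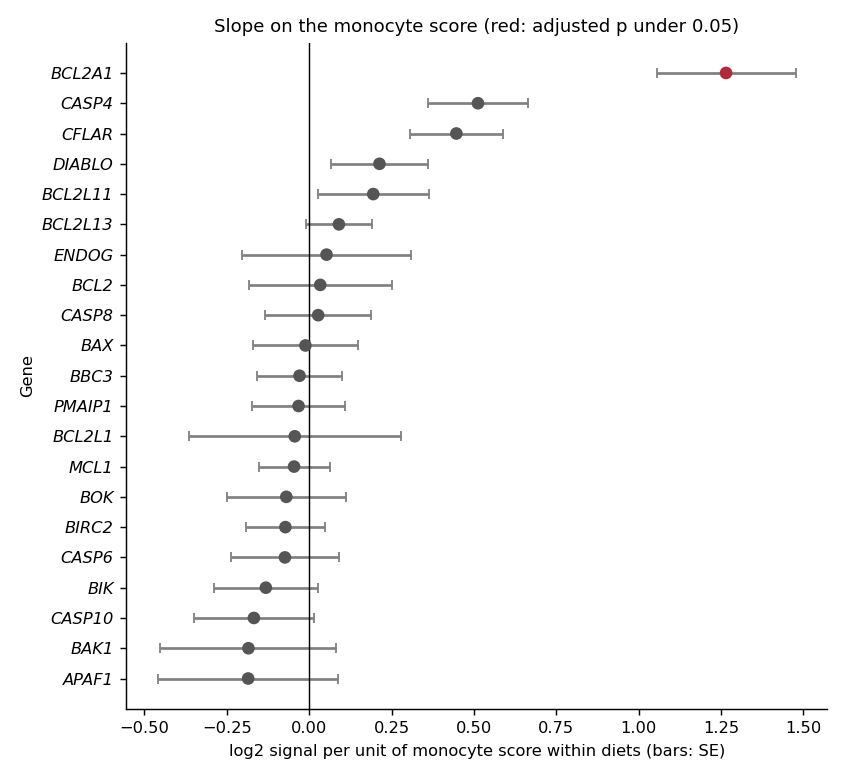
Slope of log2 signal on the monocyte score within diets for the 21 tested genes, with SE (x axis, log2 units per unit of score, 14 animals). The slope of BCL2A1 (red, 1.27) is the called one, and those of most other genes lie near 0.

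Of the other pro-survival BCL2 genes none was called on the monocyte score, with slopes of 0.034 ± 0.22 for BCL2, -0.046 ± 0.11 for MCL1 and -0.044 ± 0.32 for BCL2L1. Differences between slopes were not tested. At an unadjusted p under 0.05 there were 3 genes on the monocyte score (BCL2A1, CASP4 and CFLAR), against 19.9% of all tested probe sets, and 3 on the neutrophil score (BCL2A1, DIABLO and APAF1), against 18.3%. On the T cell score, 0 of 21 genes were called, against 0.349% of all tested probe sets. At an unadjusted p under 0.05 there were 4 (ENDOG, BCL2L1, BCL2 and APAF1), against 14% of all tested probe sets, and the smallest p belonged to ENDOG (slope 1.49 ± 0.45, adjusted p = 0.148, limma). BCL2 had a T cell slope of 1.03 ± 0.42 (adjusted p = 0.276, limma) and BCL2L1 of 1.54 ± 0.62 (adjusted p = 0.272, limma). On the B cell, NK and cytotoxic, and platelet scores 0 of 21 genes were called, against 0.00379%, 0% and 1.08% of all tested probe sets (limma). At an unadjusted p under 0.05 there were 1 (CFLAR), 2 (BCL2L1 and ENDOG) and 1 (BCL2A1), against 4.95%, 9.06% and 13.6%.

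Beyond the families themselves, 52 further genes of cell death pathways were listed, of which 34 were on the array by their own symbol and 29 were tested. Of the 29 genes, 0 were called (limma), 13 were higher and 16 lower in CR, with a median of -0.025, and 2 (6.90%) passed an unadjusted p under 0.05, near the 5.12% of all tested probe sets. Both lay on the higher side. DFFA, the inhibitor and chaperone of the caspase-activated DNase, had signals of 211, 270 and 347 in controls and 281, 366 and 413 in CR, a difference of 0.41 ± 0.18 with 7 of 7 CR animals above the control median. PIDD1, the platform for CASP2 activation, was at 2831, 3871 and 4314 in controls and at 3852, 4372 and 6128 in CR, a difference of 0.34 ± 0.16. Both had an adjusted p of 0.918 (limma). HTRA2, a mitochondrial protease, differed by 0.24 ± 0.14 with 7 of 7 CR animals above the control median. So did CRADD, by 0.13 ± 0.17. How often this held over all tested probe sets was not counted. The death receptor gene FAS differed by 0.27 ± 0.22. NAIP, an inflammasome sensor of the inhibitor of apoptosis family, differed by -0.58 ± 0.42, with 1 of 7 CR animals above the control median. DFFA, PIDD1, HTRA2, FAS and NAIP had other probe sets as well, and the values here are of the brightest one alone. The genes named here were picked after their values were seen, and most lay higher, unlike the 29 genes together.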

How the data were processed

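MAS5 signal intensities on a linear scale, 1 per probe set and array, were deposited by the authors, and MAS5 is named without a version in the submitters' processing notes. Arrays had been scaled as a whole, with a mean of 500.0 on each of the 14 after trimming 2% at both ends, so a change in total RNA would not show. The sources used here give no detection calls, scan dates or filters. Intensities under 16 were set to 16 and log2 was taken. The brighter 50% by mean log2 (26383 after leaving out 99 controls, mean log2 of at least 6.45) were tested with limma 3.58.1 in R 4.3.3 (mean-variance trend, two-sided, Benjamini-Hochberg over all tested, threshold 0.05). All 23 Entrez IDs matched their symbol in a current RefSeq table (assembly T2T-MMU8v2.0); genome positions were not used. The fits were tested on simulated data.

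Named in detail were the 10 tested genes with the smallest p, 13 fixed ones (11 of them tested), and genes called for the monocyte score. Other tested genes were given by their differences, and DFFA, PIDD1, HTRA2, CRADD, FAS, NAIP, the fit on the neutrophil score, and fits with the platelet or neutrophil score beside the monocyte score were chosen after their values were seen. Genes, lists and alternatives were chosen with earlier results of these data known. Permutation tests used scipy, 100000 resamples for 14 animals and exact for 7, two-sided. Those over 14 animals shuffled without regard to diet. The number of arrays limits the precision: the median SE of the 21 genes was 0.219. The titles call the samples biological replicates.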

Additional observations from a re-analysis of the deposited data

Results flagged for a closer look

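Each of the 21 genes and 4 summaries was checked in each diet for a single animal far from the others by Dixon's criterion (95% level), 50 groups in all. The criterion marked 1 group, and chance alone marks about 1 group in 20. It was CASP4 in controls, where control 1 had a log2 signal of 9.72 against 11.17 in the next lowest animal, a gap of 0.795 of the whole range. Control 1 also had the lowest monocyte score among controls (-0.77) and the lowest median correlation with the other arrays (0.879). Its GAPDH 3-prime to 5-prime ratio was the highest, at 7.50 in log2. The other controls ran from 5.07 to 6.84 and the CR animals from 6.03 to 6.87. On every array the 3-prime GAPDH probe set was thus far brighter than the 5-prime one. The part of these measures in the CASP4 value was not tested.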

How the results depend on the processing

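Under all 29 alternative fits for diet, 14 of them leaving out 1 animal, 0 of the tested genes of these families and 0 of the other pathway genes were called (21 and 29 tested, but 15 and 23 over the upper 25% of probe sets and 23 and 34 without the filter), and the smallest adjusted p among the family genes was 0.622, with the replicate block. Over all tested probe sets 0 were called in every fit as well. At an unadjusted p under 0.05 the count of family genes was 1 or 2. Over all tested probe sets that count ran from 803 of 13192 (upper 25%) to 2598 of 52766 (no filter). APAF1 kept its sign in all 29 fits, from -1.08 without control 2 to -0.67 without CR 1, and otherwise from -1.02 to -0.38. CASP4, BCL2L11, BIRC2, MCL1 and BAX also kept their sign in all 29, although BAX was at 0.0049 without control 3 and MCL1 at 0.012 with the 4 scores. CASP10 and BOK did so in the fits that tested them (they were not in the upper 25%), and 8 of the 16 genes named in detail did not in at least 1 fit. The gap between the medians of the sides, -0.067, ran from -0.19 to 0.094 with 1 animal left out and from -0.20 to 0.17 otherwise.

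The sign of these differences turned. With 1 animal left out, BCL2 ran from -0.11 to 0.19, BAK1 from -0.093 to 0.28, BBC3 from -0.092 to 0.046, PMAIP1 from -0.13 to 0.047 and BCL2A1 from -0.56 to 0.073 (without CR 7). Median centring gave 0.014 for BBC3. Without control 1 and CR 2, BCL2 was at -0.0017, BBC3 at 0.036 and PMAIP1 at 0.041. Without CR 6 and CR 7, BCL2A1 was at 0.37. With the monocyte score, BCL2A1 was at 0.46 and BAK1 at -0.053. With the GAPDH ratio, BAK1 was at -0.068. With all 4 scores, ENDOG was at -0.15, BCL2L1 at -0.45, CASP8 at -0.14, BCL2 at -0.18 and BCL2A1 at 0.12.

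The count of genes called for the monocyte score was 1, and 1 to 2 with 1 animal left out (CFLAR joined without CR 5, slope 0.52). It was 2 over the upper 25% of probe sets (CASP4 joined, slope 0.51), 0 without CR 6 and CR 7, 0 with the platelet score added and 0 with the neutrophil score added, both alternatives chosen after seeing the data. Over all alternatives for this score, the count of all probe sets called ran from 16 to 1508, against 1080 in the main fit. The slope of BCL2A1 ran from 1.07 to 1.47 with 1 animal left out.

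Control and CR animals share replicate numbers, but same-numbered animals correlated in their deviations from the diet means at only -0.11 to 0.18, with 4 of 7 pairs over 0.1, and 3 of 14 animals correlated best with their own number. The replicate block gave 0 called probe sets (limma; 1735 at an unadjusted p under 0.05) and 0 called genes (2 at unadjusted p), with APAF1 at -0.89 ± 0.23.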
